A study of Mus musculus with 20 samples.

Results

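DEHP, a phthalate plasticizer with anti-androgenic activity, was given to pregnant FVB/N mice, and the question of this comparison is which promoters of the sons' sperm DNA differed in methylation signal from those of sons of vehicle-treated mothers. The comparison holds 10 of the 20 sperm samples of the study, namely 5 FVB/N control and 5 FVB/N DEHP samples, chosen by strain in the labels. The other 10 samples are C57BL/6J males under the same design. Mothers of the DEHP group were given 300 mg/kg/day of DEHP in corn oil by mouth between gestation days 9 and 19, mothers of the control group were given the corn oil alone over the same days, and all sons were 8 weeks old. Sperm came from the epididymis and vas deferens of single males, and the sources used here do not state how many litters they came from. Sons of treated mothers were not dosed themselves.

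In MBD-sequencing, fragments with methylated CG sites are captured by a methyl binding domain and sequenced. The number of reads over a region therefore depends both on how methylated it is and on how many CG sites it holds. Male germ cells lose most of their methylation before sex determination and gain the paternal pattern in the fetal testis, which is the period covered by the exposure. In mature sperm most of the genome is methylated, whereas CG-rich promoters are mostly free of methylation.

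The probes of the authors are 22480 promoters of 2200 bp each, from 2000 bp before to 200 bp after the start of a gene. Of these, 6 are shown here by the 300 bases around the start, as RefSeq gives them for GRCm38.p6, because the results turn on them and they differ widely in CG sites. In each line capitals mark the CG dinucleotides, which are the sites that MBD capture reads when methylated. The first 4 promoters were lower in DEHP sperm and the last 2 were higher.
Gm12522, chr3:108383692-108383991, minus strand: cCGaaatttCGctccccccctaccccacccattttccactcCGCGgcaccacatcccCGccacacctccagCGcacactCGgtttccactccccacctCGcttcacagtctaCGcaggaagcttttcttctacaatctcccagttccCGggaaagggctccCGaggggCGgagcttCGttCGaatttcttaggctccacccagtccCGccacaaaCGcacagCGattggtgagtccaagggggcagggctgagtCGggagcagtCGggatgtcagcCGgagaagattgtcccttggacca
Cort, chr4:149126714-149127013, minus strand: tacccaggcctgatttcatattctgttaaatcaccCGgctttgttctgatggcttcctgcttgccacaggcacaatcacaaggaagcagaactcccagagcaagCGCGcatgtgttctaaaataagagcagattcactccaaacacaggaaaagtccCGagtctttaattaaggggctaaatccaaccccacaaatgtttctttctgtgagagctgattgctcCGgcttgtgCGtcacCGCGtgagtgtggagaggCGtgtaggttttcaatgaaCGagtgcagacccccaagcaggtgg
Prdm9, chr17:15564305-15564604, minus strand: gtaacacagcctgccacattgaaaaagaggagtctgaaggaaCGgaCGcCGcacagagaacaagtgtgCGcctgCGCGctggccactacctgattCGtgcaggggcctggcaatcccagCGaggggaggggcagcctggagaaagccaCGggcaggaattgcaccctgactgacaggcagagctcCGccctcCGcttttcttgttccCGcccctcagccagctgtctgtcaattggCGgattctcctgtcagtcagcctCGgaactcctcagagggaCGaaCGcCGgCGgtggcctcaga
Prm1, chr16:10796774-10797073, minus strand: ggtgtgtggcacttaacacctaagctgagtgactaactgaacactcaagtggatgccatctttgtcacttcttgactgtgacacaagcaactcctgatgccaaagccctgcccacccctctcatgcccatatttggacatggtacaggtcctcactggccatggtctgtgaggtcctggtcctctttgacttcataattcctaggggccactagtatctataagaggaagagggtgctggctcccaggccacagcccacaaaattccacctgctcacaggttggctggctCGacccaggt
Keg1, chr19:12695540-12695839, plus strand: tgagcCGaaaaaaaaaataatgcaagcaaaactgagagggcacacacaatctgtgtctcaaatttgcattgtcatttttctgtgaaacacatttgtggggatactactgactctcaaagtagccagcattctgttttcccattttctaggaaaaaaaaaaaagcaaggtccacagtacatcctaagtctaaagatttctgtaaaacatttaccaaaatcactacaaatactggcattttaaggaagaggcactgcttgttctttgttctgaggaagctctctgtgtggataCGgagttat
Reg1, chr6:78425733-78426032, plus strand: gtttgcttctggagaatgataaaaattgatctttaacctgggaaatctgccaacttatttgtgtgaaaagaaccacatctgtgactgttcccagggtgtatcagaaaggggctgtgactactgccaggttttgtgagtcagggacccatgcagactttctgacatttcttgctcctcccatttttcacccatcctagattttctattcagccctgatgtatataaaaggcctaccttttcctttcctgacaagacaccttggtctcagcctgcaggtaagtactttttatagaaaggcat
These windows held 20 CG dinucleotides at Gm12522, 18 at Prdm9, 10 at Cort, 2 at Keg1, 1 at Prm1 and 0 at Reg1, against a median of 7 over the 32851 RefSeq windows. The whole probes held 71, 72, 66, 22, 27 and 9 CG sites in that order, so most CG sites of each probe lay outside the printed window.

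The values are the authors' means and SDs of normalized reads over the 5 libraries of a group, and single libraries were not used here. An exact test between animals needs the single values and was not made. A separation was called instead where the means of both groups, each plus and minus 1.79 SD, did not overlap, since no library of 5 can lie farther from its mean when the SD is computed with n - 1. The sources used here do not state which SD it is, and with the wider bound for an SD computed with n the separated promoters were 176 lower and 77 higher in place of 233 and 141. If the SD is the one with n - 1, a separated promoter is therefore one where every DEHP library lay below, or above, every control library. The means of all promoters summed to 141091.6 normalized reads in controls and 150346 in DEHP, and both were scaled to a common sum before they were compared. In the text, means and SDs are on this scale, and the log2 ratio is control over DEHP after adding 1 read to each mean, so that a positive ratio stands for less signal in DEHP sperm. DEHP and control samples went to the sequencing service as separate submissions, each with both strains, so the treatment and the submission cannot be told apart in any result given here. According to the methods of the study, the control libraries also had shorter reads and fewer read-pairs, and the part of either in the results was not tested. The control SD was also larger relative to the mean, with a median over promoters of 0.811 against 0.41 in DEHP.

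As a check of the cell type, H19, a paternally methylated imprinted gene, had 19.4 normalized reads in controls and 17.0 in DEHP sperm, against medians over all promoters of 3.10 and 4.75. The other paternally methylated markers were nearer the median in controls, with 7.23 reads at Meg3 and 3.82 at Rasgrf1. In DEHP sperm Meg3 had 5.04 reads, and Rasgrf1, with 2.52, was below the median over all promoters. The 14 maternally methylated markers, which sperm should hold unmethylated, had medians of 3.31 in controls and 4.02 in DEHP sperm, and none of them was at 0. Nnat was the highest of them, at 18.7 and 14.2 reads. The probes were not set on the imprinting control regions, and whether the samples held somatic cells was not tested.

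Of the 22480 promoters, 233 (1.04%) were lower in DEHP sperm, with all DEHP libraries below all control libraries, and 141 (0.627%) were higher, with all DEHP libraries above. Scaled to equal medians in place of equal sums, the same count was 731 lower and 28 higher, so the balance between both directions rests on the scaling. The 233 lower promoters covered 220 regions without overlap and the 141 higher promoters 140 regions. The lower promoters were strongly captured in controls, with a median of 41.1 normalized reads that was 15.8 in DEHP sperm, and their log2 ratios ran from 0.46 to 3.86. The higher promoters were almost empty in controls, with a median of 1.34 reads that was 6.59 in DEHP sperm, and their log2 ratios ran from -2.79 to -0.86. The lower promoters held 8.53% of all scaled reads in controls and 2.77% in DEHP sperm, and the higher promoters 0.174% and 0.72%.

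**Figure D1:**
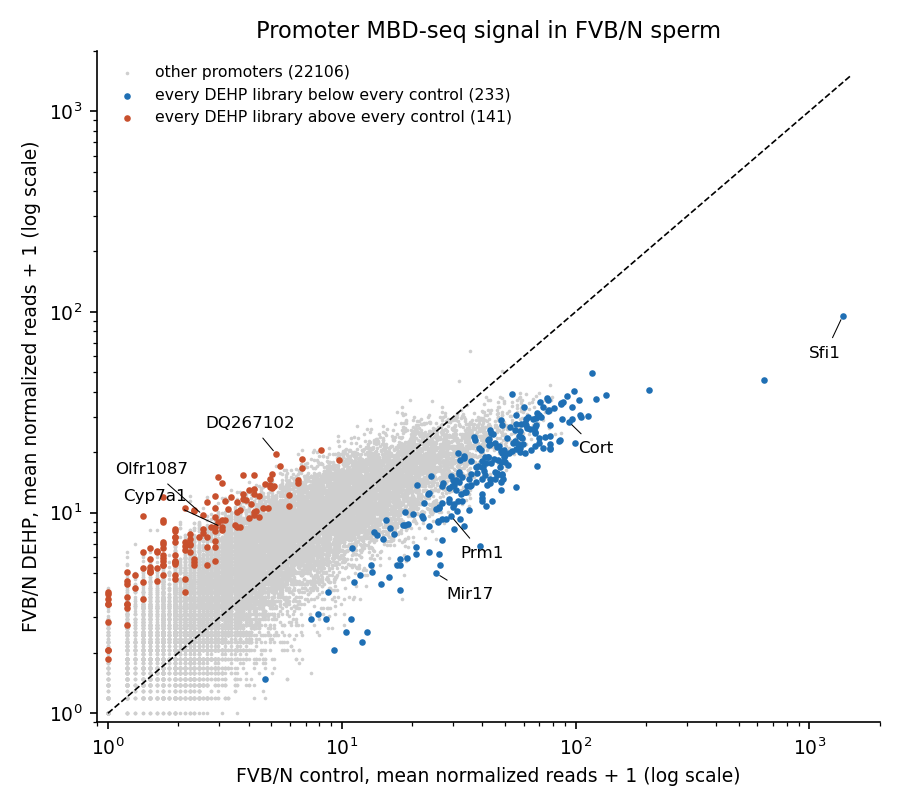
Each point is a promoter, with the FVB/N control mean on the x axis and the FVB/N DEHP mean on the y axis, both as scaled normalized reads plus 1 on log axes. The 233 promoters with every DEHP library below every control (blue) lie mostly at high control signal, and the 141 with every DEHP library above (orange) at low control signal. The dashed line marks equal means.

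Among the lower promoters, the difference was largest relative to the SD at Gm12522, a non-coding transcript whose probe (chromosome 3, 108383542 to 108385741) lies inside Psrc1. It had 42.8 reads in controls (SD 1.96) and 10.5 in DEHP sperm (SD 1.74), so that the lowest control library was at least at 39.1 and the highest DEHP library at most at 13.7. Cort, which encodes the neuropeptide cortistatin, had 92.5 reads (SD 7.23) against 27.3 (SD 4.36). Its probe on chromosome 4 overlaps exons of Cenps. Gm5105 had 133 reads (SD 11.4) against 37.6 (SD 8.72).

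Genes of very different function were also among the 15 regions with the largest difference over the larger SD. Rccd1, whose probe lies in Unc45a, had 63.3 reads in controls and 19.5 in DEHP sperm. Nme5, which is needed for sperm flagella, had 24.8 reads (SD 2.27) against 8.04 (SD 1.36). Psmb10, a subunit of the immunoproteasome, had 42.2 reads against 13.0. Mrap, the accessory protein of the ACTH receptor, had 70.4 against 29.1 reads, and Slc22a7, an organic anion transporter of liver and kidney, had 30.8 against 13.3 reads. Murc, a caveolar protein of muscle, had 59.9 against 26.9 reads. Gm5132, whose probe on chromosome X overlaps H2al1o, a histone variant gene of the H2A.L family, had 54.4 reads (SD 6.61) against 12.4 (SD 5.52). The other promoters among the 15 with the largest differences were those of 5 microRNA regions, described with that class.

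The higher promoters were led by Olfr1087, an olfactory receptor gene on chromosome 2, with 1.55 reads in controls (SD 0.93) and 8.72 in DEHP sperm (SD 0.582). For an SD computed with n - 1, no control library could exceed 3.36 reads there and no DEHP library could be below 7.55. DQ267102, a small nucleolar RNA gene inside Rian in the Dlk1-Dio3 imprinted cluster, had 4.23 reads (SD 2.27) against 18.6 (SD 1.26). Keg1, a kidney-expressed gene, had 5.47 reads (SD 1.24) against 13.1 (SD 1.07).

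Cyp7a1, the rate-limiting enzyme of bile acid synthesis, had 2.07 reads (SD 0.93) against 7.46 (SD 0.775). Eftud1, a GTPase of ribosome maturation, had 0.723 reads against 8.14, and Reg1, a regenerating protein of the pancreas, had 1.24 against 6.01. Odc1, the ornithine decarboxylase that starts polyamine synthesis, had 1.14 reads (SD 0.103) against 3.00 (SD 0.388), and Pias2, a SUMO ligase, had 0.62 against 3.59. Differences of this size are a few reads per promoter. Ccdc110, A330033J07Rik, Mir6345, Arhgap15os, V1rd18, Olfr453 and Olfr329-ps completed the 15, with control means between 0.723 and 3.92 reads and DEHP means between 3.88 and 14.4. With equal medians 10 of these 15 were still separated, and Keg1, A330033J07Rik, Reg1, Odc1 and Pias2 were not, whereas all 15 of the lower promoters were.

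**Figure D2:**
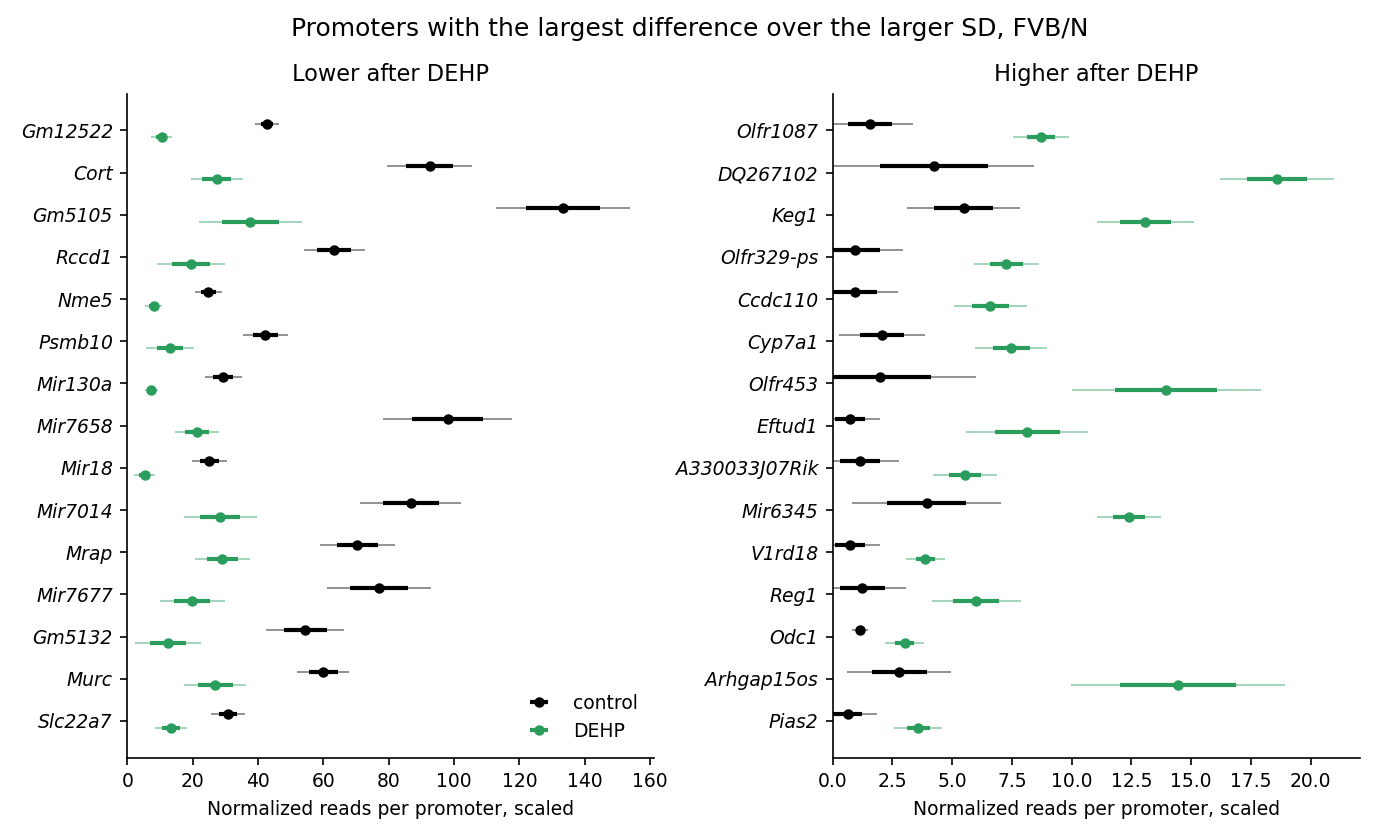
Means (points), SDs (thick bars) and the range in which all 5 libraries must lie (thin bars) for FVB/N control (black) and DEHP (green), in scaled normalized reads, for the 15 promoter regions with the largest difference over the larger SD in each direction. The ranges of both groups do not overlap in any row, and the x axes differ by direction.

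The ratio moved with the signal level over all promoters. Where the mean of both groups was over 48 normalized reads, the median log2 ratio was 1.29 and 37 of 59 promoters were lower in DEHP. It was 0.72 at 24 to 48 reads, with 107 of 659 promoters lower, and 0.17 at 12 to 24 reads. Below 12 reads the medians were negative, at -0.26 for 6 to 12 reads, -0.52 for 3 to 6 and -0.41 for 1 to 3. The level holds both group means and is therefore not independent of the ratio. The spread of signal over promoters was thus narrower in DEHP sperm. The 225 highest promoters held 10.8% of all deposited reads in controls and 4.79% in DEHP sperm. With promoters grouped by the same FVB/N levels, the C57BL/6J groups, from the same submissions, had medians of 1.18 at the highest level and -0.51 at 3 to 6 reads.

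The ratio also moved with CG sites. The 2006 promoters holding up to 10 CG sites had a median log2 ratio of -0.70, with 0 lower and 25 higher, and those with 11 to 20 CG sites had -0.63, with 3 lower and 51 higher. The median over all promoters was -0.28. Promoters with 21 to 40, 41 to 60 and 61 to 100 CG sites had medians of -0.15, -0.23 and -0.22, and held 210 of the 233 lower promoters. The 1823 promoters with over 100 CG sites had a median of 0.015, with 20 lower and 1 higher, and this turned to -0.049 with the means as deposited. Thus 76 of the 141 higher promoters had at most 20 CG sites, against 3 of the 233 lower ones. Under equal medians promoters holding up to 20 CG sites counted 14 of the 731 lower and 17 of the 28 higher promoters.

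**Figure D3:**
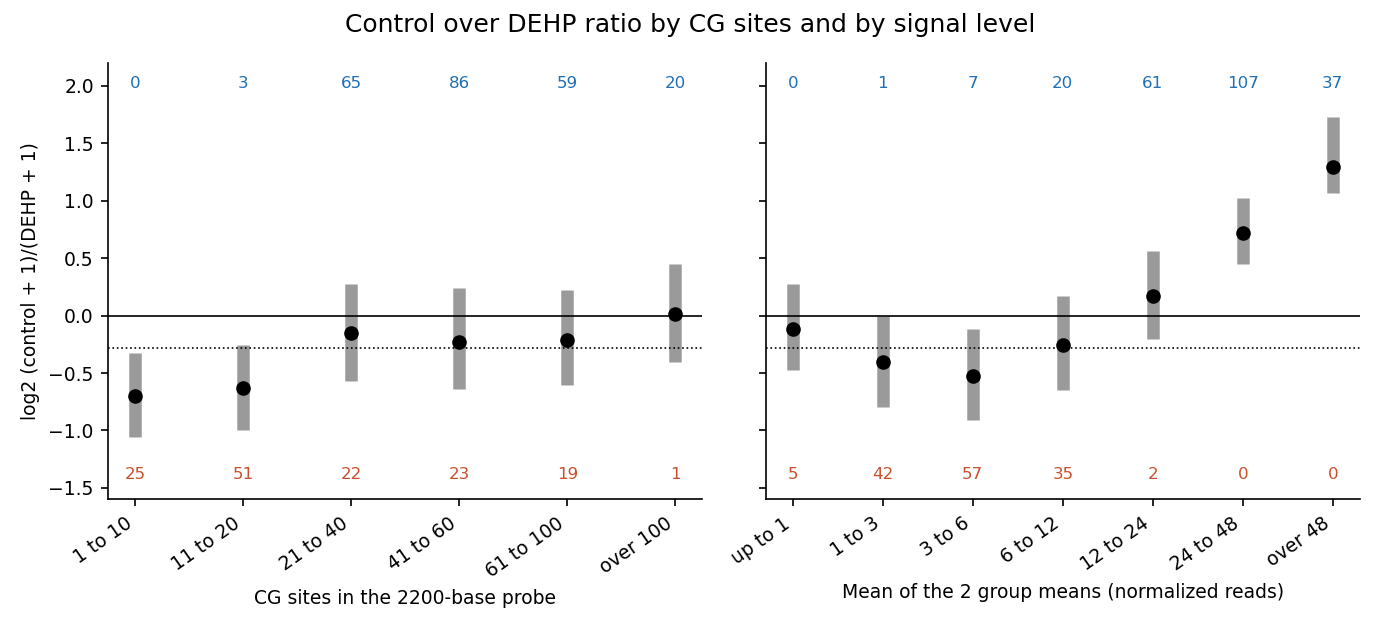
Median (points) and quartiles (bars) of the log2 ratio of control over DEHP by the number of CG sites of the probe (left) and by the mean of both group means (right). Blue figures count promoters with every DEHP library below every control library and orange figures those with every DEHP library above. The dotted line is the median over all promoters, -0.28, and the ratio climbs from -0.52 at 3 to 6 reads to 1.29 over 48 reads.

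The position of the probe differed between both sets as well. At least 50% of the probe lay inside another protein-coding gene for 57.1% of the lower promoters and for 20.6% of the higher ones, against 22.2% of all promoters. Among promoters with a level over 12 reads, 125 of 1179 inside another gene were lower, and 80 of 2109 elsewhere. Their median control signal was 21.9 and 17.8 reads, so the level was not matched. The lower promoters had a median GC content of 52.2%, the higher ones 41.6% and all promoters 48.0%. Repeat-masked sequence filled 13.9%, 19.4% and 19.2% of the probe as a median.

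Among promoters of microRNA genes, separated promoters were more often lower in DEHP sperm than higher. MicroRNAs are short RNAs that repress transcripts paired with their seed, bases 2 to 8. Of the 996 probes whose symbol starts with Mir, 69 (in 60 regions) were lower in DEHP and 6 were higher, against 1.04% and 0.627% of all promoters, which makes 6.93% and 0.602% of the class. The median log2 ratio of the class was 0.018, against -0.28 over all promoters, and it was -0.052 with the means as deposited. The class was more strongly captured than the rest in controls, with a median of 10.8 reads, and 64.4% of its probes lay inside another protein-coding gene. Of those inside another gene, 57 of 641 were lower, and of the others 12 of 355. At a level over 12 reads, 68 of 481 Mir probes and 137 of 2807 other probes were lower. Their median control signal was 28.1 and 18.3 reads, and 74.6% and 29.2% lay inside another gene. The comparison is therefore not at matched level or position.

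The clusters mir-17-92 and mir-106b-25, whose microRNAs act on cell cycle and apoptosis genes, had all of their 8 probes lower in DEHP, with a median log2 ratio of 1.46, under each scaling tried. The 8 probes overlap and form only 2 regions, on chromosomes 14 and 5, so they are no independent counts. The mature microRNAs of these probes and of Mir130a are shown because 4 of them, from both regions, share a seed. RefSeq gives them as follows, 5′ to 3′, with the seed in capitals.
miR-17-5p: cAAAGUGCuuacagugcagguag
miR-20a-5p: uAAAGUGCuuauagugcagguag
miR-93-5p: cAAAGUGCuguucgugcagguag
miR-106b-5p: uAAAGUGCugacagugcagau
miR-18a-5p: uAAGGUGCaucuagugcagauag
miR-19a-3p: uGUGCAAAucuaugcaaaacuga
miR-130a-3p: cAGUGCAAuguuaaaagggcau
miR-25-3p: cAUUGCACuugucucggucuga
The seed AAAGUGC belongs to the first 4 and each of the other 4 has its own. Mir17, whose probe holds 139 CG sites, had 24.4 reads in controls (SD 3.82) and 3.97 in DEHP sperm (SD 1.45). Mir18 had 25.1 (SD 2.89) against 5.23 (SD 1.65), and further along the cluster Mir20a had 28.9 against 9.69. In the other cluster, Mir25 had 66.2 reads (SD 8.57) against 24.3 (SD 6.98), Mir93 had 66.3 against 24.0 and Mir106b 57.3 against 22.7. Mir130a on chromosome 2 had 29.3 reads (SD 3.10) against 7.27 (SD 1.07), and every DEHP library was also below every control library there in C57BL/6J.

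Mir7658, Mir7014 and Mir7677 also ranked among the 15 lower regions, and all lay within protein-coding genes. The first, in Plekhn1, had 98.0 reads (SD 10.9) against 21.3 (SD 3.68), the second, in Ecm1, had 86.8 against 28.4, and the third, in Itpr3, had 77.0 against 19.9. The log2 ratios of all 69 lower Mir probes ran from 0.46 to 2.35. The 6 higher Mir probes had DEHP means between 4.07 and 12.4 reads. Among them was Mir6345, in Ppp1r7, with 3.92 reads (SD 1.65) against 12.4 (SD 0.678).

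Separated olfactory receptor promoters were mostly higher in DEHP sperm. Olfactory receptors (Olfr) and vomeronasal receptors (Vmn) are large clustered families that detect odorants and pheromones, and their promoters are poor in CG sites, with a median of 8 in both. The 1074 Olfr promoters had a median log2 ratio of -0.77, with 27 higher, which is 2.51% of the class, and 0 lower. The all-promoter shares were 0.627% higher and 1.04% lower. The 238 Vmn promoters had -0.73, with 3 higher (1.26%) and 1 lower (0.42%). Both lay close to the -0.70 of all promoters with at most 10 CG sites, and after subtraction of the median of their decile of CG sites the medians were -0.092 and -0.077. The families were weakly captured, with median control reads of 1.14 for Olfr and 0.981 for Vmn.

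The separated Olfr promoters had log2 ratios from -2.34 to -0.90. Olfr453 on chromosome 6 had the largest, with 1.96 reads in controls (SD 2.17) and 14.0 in DEHP sperm (SD 2.13). Under equal medians 8 Olfr promoters were higher and 4 lower, and 1 Vmn promoter was separated in each direction. Over all promoters that scaling gave 28 higher and 731 lower. Other families poor in CG sites also had negative medians, at -0.77 for the keratin-associated Krtap genes (51 promoters), -0.75 for the taste receptors (38 promoters), -0.56 for the trace amine receptors (15 promoters) and -0.40 for the defensins (49 promoters), and none of their promoters was separated. The Cyp genes, with a median of 15 CG sites, had -0.45 over 104 promoters, with 1 lower and 1 higher. Each is 0.962% of the class, against 1.04% lower and 0.627% higher over all promoters. The clustered protocadherins had -0.71 over 68 promoters, also with 0 separated, although their median was 28 CG sites. The 20 Ugt genes, which conjugate steroids and xenobiotics, had -0.87. Their separated members were Ugt1a9 and Ugt2a2, both higher in DEHP (10% of the class, against 0.627% of all promoters). The 39 Hox promoters, with a median of 63 CG sites, had a positive median of 0.20 and none separated.

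Genes of spermatogenesis were described by the gene ontology flag of the authors. The 383 flagged promoters had a median log2 ratio of -0.12, against -0.28 for all, with 7 lower in DEHP (1.83%, against 1.04% of all promoters) and 2 higher (0.522%, against 0.627%). The lower ones were Nme5, Mea1, Prm1, Hist1h2ba, Fscn3, Rpl10l and Prdm9, and the higher ones were Spata6 and Svs2. Fscn3, an actin-bundling protein of elongating spermatids, had 58.4 reads (SD 11.6) against 20.8 (SD 5.82). Hist1h2ba, the testis-specific histone H2B, had 9.91 (SD 2.17) against 1.94 (SD 0.775). Rpl10l, which stands in for the X-linked ribosomal protein during meiosis, had 7.75 (SD 0.62) against 3.00 (SD 1.55). Spata6, a protein of the sperm head and tail junction, had 1.34 (SD 0.516) against 4.85 (SD 1.26).

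The sperm packaging list holds the genes of protamines and transition proteins, which replace histones in the spermatid. It also holds Hils1, H1fnt, Chd5 and Brdt, which encode neither. The 9 promoters of the whole list had a median log2 ratio of 0.84, and 8 of the 9 had a positive ratio. Prm1 on chromosome 16, whose window is shown above, was separated, with 28.3 reads in controls (SD 4.65) and 8.63 in DEHP sperm (SD 2.04). Its neighbours were not separated, with 28.9 (SD 7.44) against 12.3 (SD 2.91) at Tnp2 and 51.2 (SD 14.0) against 22.1 (SD 3.49) at Prm3, and Prm2 had a log2 ratio of 0.84. Prm1, Prm2, Prm3 and Tnp2 lie next to each other in the genome and are not independent. In C57BL/6J the median of the list was 0.39.

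The meiosis list of 20 promoters had a median of 0.24, with Prdm9 separated. Prdm9, the histone methyltransferase that places recombination hotspots, had 19.7 reads (SD 4.75) against 5.72 (SD 2.04). Sycp3, of the synaptonemal complex, had 4.96 (SD 1.76) against 1.45 (SD 0.485). The 18 promoters of the piRNA pathway, which silences transposons in the male germ line, had a median of 0.41 and 0 separated. Fkbp6 had the largest difference over the SD, with 18.9 (SD 4.34) against 9.89 (SD 3.10), and Piwil2 had 8.26 (SD 3.00) against 3.10 (SD 1.45). Both medians had the other sign in C57BL/6J, at -0.20 and -0.34, where the median over all promoters was -0.34. The difference between strains was not tested.

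The remaining sperm lists had 0 separated promoters at equal sums, where the median over all promoters was -0.28. The sperm tail genes had a median of -0.39 over 20 promoters, where Smcp of the mitochondrial sheath had 1.14 reads (SD 0.826) against 4.07 (SD 1.45) and Odf3 of the outer dense fibres had 38.7 (SD 7.85) against 23.0 (SD 4.65). The acrosome and fertilization genes had 0.032 over 20 promoters, with 12.8 (SD 2.27) against 7.46 (SD 1.74) at Izumo2 and 5.06 against 1.74 at Ly6k. The sperm ion channels had 0.16 over 13 promoters, with 0.31 (SD 0.62) against 3.68 (SD 1.45) at Catsperb and 29.3 (SD 8.06) against 14.5 (SD 4.65) at Catsper4. The genes of spermatogonial stem cells had -0.18 over 15 promoters, with 10.9 (SD 3.41) against 2.71 (SD 1.65) at Dazl, an RNA-binding protein of germ cells, and 13.1 (SD 1.86) against 6.69 (SD 2.91) at Sall4. Under equal medians the spermatogonial list had a median of 0.38 and the acrosome list 0.54, each with 2 promoters lower, the sperm tail list had 0.11 with 1 lower and the ion channels had 0.74 with 0, against 0.17 over all promoters.

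Lists related to the action of phthalates had 0 separated promoters at equal sums and negative medians, against -0.28 over all promoters. Steroidogenesis and androgen action had -0.59 over 16 promoters, with 6.09 reads (SD 3.10) against 14.1 (SD 4.36) at Cyp19a1, the aromatase, and 5.06 (SD 3.72) against 10.8 (SD 4.56) at Hsd17b3, which makes testosterone. The PPAR and xenobiotic receptors had -0.43 over 17 promoters, with 2.48 (SD 1.34) against 5.43 (SD 1.26) at Arnt and 0.516 (SD 0.62) against 3.10 (SD 1.45) at Ahr. The DNA methylation machinery had -0.037 over 14 promoters. Its largest differences over the larger SD were at Tet1, a 5-methylcytosine oxidase, with 24.4 (SD 9.30) against 6.40 (SD 2.52), and at Mbd3, with 0.93 (SD 0.93) against 2.13 (SD 0.582). After subtraction of the median of their decile of CG sites, the medians were -0.046 for steroidogenesis, -0.027 for the PPAR list and 0.14 for the methylation machinery. Under equal medians the median over all promoters was 0.17. The list medians were then 0.41 for the methylation machinery, with 1 promoter lower, and 0.0011 for the PPAR list and -0.086 for steroidogenesis, both with 0 separated.

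**Figure D4:**
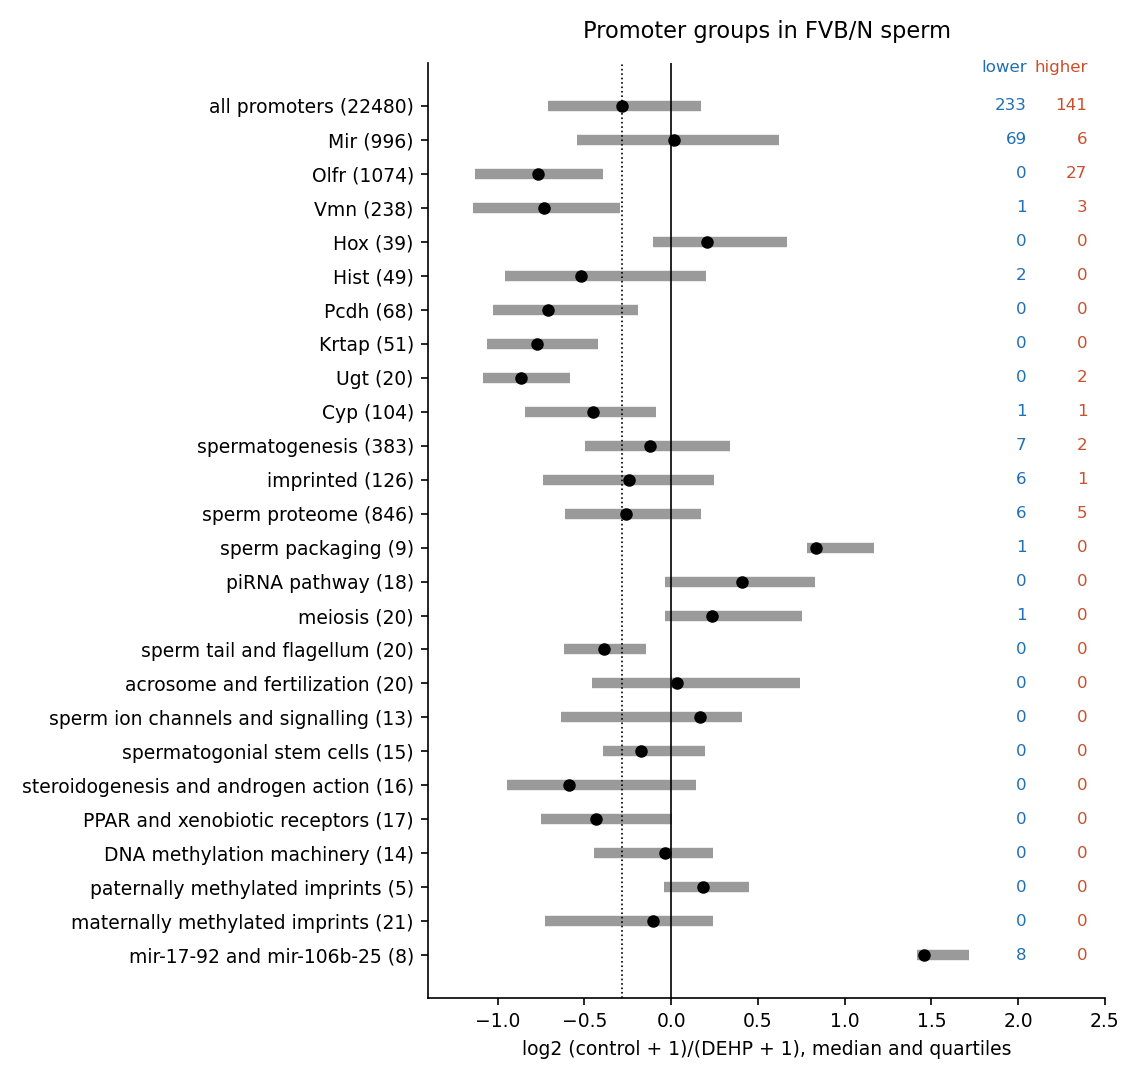
Median (points) and quartiles (bars) of the log2 ratio of control over DEHP for all promoters, gene families, annotation flags of the authors and gene lists, with the number of promoters in brackets. Blue and orange figures on the right count promoters with every DEHP library below or above every control library. The dotted line is the median over all promoters, -0.28. The mir-17-92 and mir-106b-25 list stands at 1.46 and the Olfr family at -0.77.

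Imprinted genes had both directions. Of the 126 promoters that the authors flag as imprinted, Mir410, Mir136, Mir431, Th, Tsix and Sgce were lower in DEHP (4.76%) and AF357355 was higher (0.794%), against 1.04% and 0.627% of all promoters, with a median log2 ratio of -0.24. Tsix, the antisense regulator of Xist, had 13.7 reads (SD 3.20) against 3.39 (SD 1.26), and Sgce, the paternally expressed sarcoglycan gene beside Peg10, had 11.2 (SD 3.62) against 1.26 (SD 1.26). Neither the 5 promoters of the list of paternally methylated imprints nor the 21 of the maternally methylated list were separated, with medians of 0.18 and -0.11. In the first list Meg3 and H19 had the largest differences over the SD, and in the second Impact had 2.48 (SD 1.34) against 5.91 (SD 1.16) and Snrpn 1.14 (SD 1.24) against 4.26 (SD 1.16).

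In the part of the Dlk1-Dio3 cluster from the Dlk1 to the Mirg probe on chromosome 12, 7 of 52 probes were lower (13.5%). A further 3 were higher (5.77%), against 1.04% lower and 0.627% higher over all promoters. The Mir410 probe, lower as given above, is not among the 52. Probes overlap here, so that the lower ones form 4 regions and the higher ones 2. Within this window the lower ones were microRNA probes between 109561692 and the Mir136 probe, led by Mir434 with 116 reads (SD 14.4) against 48.7 (SD 5.91). The higher ones were the snoRNA probes DQ267101, AF357355 and DQ267102 inside Rian.

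The germ-cell expression values that the authors joined to the promoters gave classes of promoters with similar medians. Of the 17133 promoters with such values, 734 belonged to genes highest in spermatogonia, 847 in Sertoli cells, 155 in spermatids and 206 in spermatocytes, with a lead of at least 1 over the next column. The median log2 ratios were -0.16, -0.25, -0.31 and -0.28, against -0.28 for all promoters. Against 1.04% lower and 0.627% higher over all promoters, spermatogonia had 3 lower (0.409%) and 4 higher (0.545%), and Sertoli cells had 6 (0.708%) and 3 (0.354%). Spermatids had 1 in each direction (0.645%), and spermatocytes had 3 lower (1.46%) and 0 higher. Over the 17133 promoters with expression values the shares were 0.805% lower and 0.496% higher. Each of the counts by cell type rests on few promoters. When only the 4 cell types were compared, which was chosen after the data were seen, 11 of 1059 spermatid promoters (1.04%, the share over all promoters) were lower, Prm1 and Fscn3 among them, and 4 (0.378%) were higher. Of the 846 promoters of genes in the sperm proteome, 6 (0.709%) were lower and 5 (0.591%) were higher, against 1.04% and 0.627% of all promoters. The higher ones included Uqcrq and Chchd6 of the mitochondrion.

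The genes on which the study reported were next examined in FVB/N alone. Sfi1, a centrosomal protein gene, had the highest signal of all, with 1388 reads in controls (SD 218) and 94.4 in DEHP sperm (SD 17.3), a log2 ratio of 3.86. It was separated in C57BL/6J as well. 3110070M22Rik had 638 against 44.8 reads, and only 59.1% of the 49-base sequences of its probe are unique in GRCm38.p6. Of the other genes, those given here were not separated. Smim8 had 1.14 reads (SD 0.826) against 0 and Fkbp1a 1.65 (SD 1.45) against 0.194 (SD 0.388). Star had 3.72 (SD 2.27) against 8.72 (SD 4.85) and Igf2r 8.99 (SD 5.37) against 7.46 (SD 1.26). Tmem125, Rabl2 and Piwil4 had log2 ratios of 0.10, 0.23 and -0.10.

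The same promoters were then read in C57BL/6J, whose animals are independent but whose libraries came from the same submissions. Of the 233 promoters lower in FVB/N, 229 also had less signal in C57BL/6J DEHP sperm (98.3%, against 31.4% of all promoters). Their median log2 ratio was 0.97 there and 1.33 in FVB/N. All promoters at FVB/N levels of 24 to 48 and over 48 reads had C57BL/6J medians of 0.73 and 1.18. Shares among promoters of the same level were not computed. Of the 141 higher promoters, 139 also had more signal in C57BL/6J (98.6%, against 68.6% of all promoters). Those past the separation bound in both strains were 7 lower ones, namely Mir130a, Sfi1, 3110070M22Rik, Gm3336, LOC102633315, Mir1306 and Fam189b, and 10 higher ones. The 7 are 3.00% of the 233 FVB/N lower promoters and 24.1% of the 29 found in C57BL/6J. The 10 are 7.09% of the 141 FVB/N higher promoters and 4.35% of the 230 found in C57BL/6J. Separation in opposite directions was found at 0 promoters. C57BL/6J itself had 0.129% of promoters lower and 1.02% higher at equal sums, the reverse of the FVB/N balance. Its deposited means summed to 226268 in controls and 153283 in DEHP, with medians of 5.0 and 5.3. Other scalings were not tried in C57BL/6J, so how far its balance rests on the scaling was not tested. Whether the strains differ was not tested. Over all promoters the log2 ratios of both strains had a Pearson correlation of 0.584 and a Spearman correlation of 0.563, and the points share the submissions and the CG sites of the probes.

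**Figure D5:**
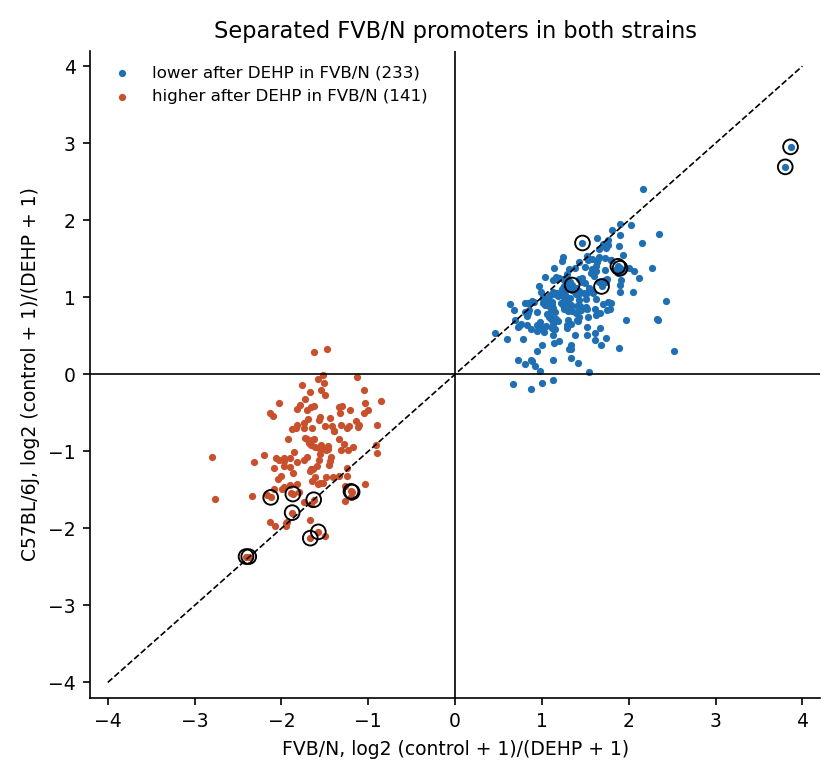
Log2 ratio of control over DEHP in FVB/N (x axis) and C57BL/6J (y axis) for the 233 promoters lower (blue) and 141 higher (orange) after DEHP in FVB/N. Rings mark those also separated in C57BL/6J, 7 lower and 10 higher, and the dashed line marks equal ratios. Most points have the same sign in both strains, and 6 do not.

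Chromosomes differed little. The median log2 ratio ran from -0.44 on chromosome 13 to -0.19 on chromosome 17. Chromosome X, with a median of 1.24 control reads, had -0.30 with 4 lower and 4 higher promoters. Each is 0.531% of its promoters, against 1.04% lower and 0.627% higher over all promoters. Promoters with over 15 variants between both strains had a median of -0.28, and those without any had -0.29. The reads of FVB/N were aligned to the C57BL/6J reference.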

How the data were processed

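Sperm DNA of FVB/N males was captured with a methyl binding domain and sequenced. According to the processing notes of the submitters and the methods of the study, the authors aligned read-pairs to mm10 with Bowtie 0.12.7, discarded pairs with several positions or without CG in the insert, counted pairs over each promoter and normalized the counts with edgeR. The table they deposited holds, per group, the mean and the SD of this signal with 1 decimal. The germ-cell expression score, joined by the authors from other data, has no stated scale and runs from 2.5 to 14.4. Fold changes, p-values and FDR of the authors' own comparisons were not used. Single libraries and their depth were not used here, so the SD is the error of each value, and its type (n or n - 1) is not stated.

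The means were multiplied by 1.03 (control) and 0.969 (DEHP) to a common sum of 145718.8. The range of a group was its mean plus and minus 1.79 SD, after widening the mean and SD by the rounding step of 0.05. The tests planned for single libraries were replaced by this bound. Alternatives were the means as deposited, equal medians, sums without the top 1%, a pseudocount of 0.1, a minimum of 3 reads, subtraction of the decile of CG sites and a wider bound. CG sites counted in GRCm38.p6 equalled the deposited number for 93.2% of the probes, and from this assembly sequence, repeats and 49-base uniqueness were taken, with genes from GENCODE. Named were, in each direction, the 15 separated regions with the largest difference over the larger SD whose higher mean was at least 3 reads, all separated members and the 2 members with the largest difference of each gene list, and the genes the study names. One of these genes is not reported here. Other promoters were named after their values were seen. The members and lists were chosen with earlier results of these data known. Groupings by level, by position in another gene and by uniqueness were added after the data were seen. Scripts ran in Python 3.11.15 (numpy 2.4.6; pandas 2.3.3; numba 0.67.0; matplotlib 3.10.9).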

Additional observations from a re-analysis of the deposited data

How the results depend on the processing

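With equal medians, the separated promoters higher in DEHP numbered 28 in place of 141 and those lower 731 in place of 233. The wider bound, for an SD divided by n, left 77 higher and 176 lower. The means as deposited gave 174 higher and 193 lower, and sums without the top 1% gave 115 and 303. Equal medians moved the median log2 ratio over all promoters from -0.28 to 0.17 and that of spermatogenesis promoters from -0.12 to 0.35. The latter was 0.096 after subtraction of the decile of CG sites. The median of promoters with over 100 CG sites turned from 0.015 to -0.049 with the means as deposited and to -0.14 with at least 3 reads, and that of Mir promoters from 0.018 to -0.052 with the means as deposited. Relative to all promoters, the Mir and spermatogenesis medians stayed above and the Olfr and Vmn medians below under each scaling, pseudocount and filter tried. The scalings could hardly change this order, because each multiplies a whole column by the same factor and shifts all ratios almost alike. No paired analysis was possible because the labels give no replicate number that groups share and the table holds group means. No replicate could be left out for the same reason. A difference between means below 1.79 times the sum of both SDs is not called here, so differences well above 1 SD can be missed.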

Other observations

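Of the promoters separated in FVB/N, 6 had a log2 ratio of the other sign in C57BL/6J, and they were picked after their values were seen. Asap1, which encodes an Arf GTPase-activating protein, had 3.92 reads in FVB/N controls (SD 1.96) and 12.7 in FVB/N DEHP sperm (SD 1.36), whereas C57BL/6J had 15.2 (SD 4.61) and 11.9 (SD 3.59). The others were Mir9-3, Abca4, Atp6v1g2, C230079O03Rik and Rpl10l. None of the 6 was separated in C57BL/6J, and the difference between strains was not tested.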
